A study of Cervus nippon with 40 samples.

Results

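The 6 miRNAs bta-miR-197, bta-miR-328, bta-miR-423-3p, bta-miR-574, bta-miR-1296 and bta-miR-1343-3p are known miRNAs named after their bovine entries in miRBase (the prefix bta- is left out from here on) that went up and down together between the libraries of an organ in Sika Deer. They are 6 of the 305 known names kept for comparison across organs, and of 500 names in all. They were chosen by the values described first here, the log2(RPM + 1) of each library minus the mean of its organ, where RPM is the number of reads of a miRNA per 1000000 miRNA reads of the library. The movement within organs is therefore a description, with no test. Organ means had been removed before the choice, so differences between organs were tested. The label of conserved miRNAs rests on the bovine names, since expression values do not measure conservation.

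A miRNA is cut from a hairpin precursor, is loaded into an Argonaute protein and guides it to messenger RNAs that match its seed, which lowers their translation or stability. Either arm of the hairpin can be kept, and the suffixes -5p and -3p name the arm. In humans miR-423 lies in an intron of NSRP1, miR-574 in an intron of FAM114A1 and miR-1296 in an intron of JMJD1C, while miR-197 is known as a regulator of the tumour suppressor TUSC2 and miR-328 of the secretase BACE1 in neurons and of calcium channel subunits in heart.

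The 40 small RNA libraries came from adrenal, antler, brain, heart, kidney, liver, lung, skeletal muscle, spleen and testes of untreated male deer of the Shuangyang breed at 4 stages. Juvenile deer were 1 year old, those in adolescence 3, adult deer 5 and aged deer 10. Each library pooled RNA of 3 deer, and the 12 deer gave all 10 organs, so the libraries of a stage share their animals. Each organ had 1 library at each stage. A stage within an organ therefore had no repeat, and the 4 libraries of an organ, which differ in stage and in animals, served as its replicates (n = 4).

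The depth ran from 41866 to 7759033 miRNA reads (median 744715), so that 1 read stood for 0.129 to 23.9 RPM. Defining miRNAs had their highest mean in the labelled organ for miR-206 (skeletal muscle, 37 reads), miR-208a (heart, 34 reads), miR-124a (brain) and miR-140 (antler). For miR-140 the libraries overlapped, with 68.2 RPM in adult and 123 RPM in aged antler and up to 338 RPM elsewhere. Likewise miR-142-5p of spleen was at 6.62 RPM in adult spleen and reached 565 RPM elsewhere. Both miR-133a and miR-133b were higher in heart than in skeletal muscle, and miR-194 had no read in liver. In the tables used the exact names miR-122 of liver, miR-219 of brain and miR-223 of blood cells had no read. Names with an arm suffix were not looked up for them, and the study reports miR-219 as specific to brain. RPM values are shares, and a few names took most of some libraries, from 91.1% to 92.9% for miR-1 in skeletal muscle. Juvenile brain, adolescence heart, adolescence lung and aged spleen held the lowest value of their organ for all 6 miRNAs, with a mean deviation of -2.04 or lower. These are the 4 libraries that stand apart below, a choice made after seeing the values. The mean r of the 6 and the number of calls between organs are given with and without them. The r of other names with the 6, the list values and the stage means were not computed without them. In such tissue libraries fewer cells of a type and less of a miRNA per cell cannot be told apart.

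The 6 miRNAs together had 133302 reads, or 0.254% of all miRNA reads. miR-197 (53809 reads) and miR-574 (49688 reads) gave most of them, followed by miR-1343-3p (18505), miR-1296 (6331), miR-423-3p (3649) and miR-328 (1320). All 6 passed the filter on low values (10 reads or more in 4 or more libraries). miR-328 had no read in 5 libraries, and 32 of the 240 values of the 6 miRNAs rested on fewer than 10 reads. Such values are loose. The 2 reads of miR-328 in aged testes gave 47.8 RPM with an exact 95% binomial interval of 5.79 to 173, which covers counting error only.

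Within organs the 6 miRNAs moved together. Over the 40 libraries the Pearson r of the deviations from the organ mean averaged 0.816 over the 15 pairs, from 0.634 (miR-328 with miR-574) to 0.919 (miR-197 with miR-1343-3p). Among all 7626 pairs of the 124 tested known names the median r was 0.12, with 5% of pairs below -0.48 and 5% above 0.69. The first axis of the 6 deviations held 84.7% of their variation. miR-1343-3p was closest to the other 5 (r = 0.948 with their mean) and miR-328, the least abundant, was the farthest (r = 0.834). The points share library and depth, and r between the mean deviation and the log2 depth within organs was -0.15.

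The size of this r depended on 4 libraries and on the scale. Without the 4 libraries that stand apart the mean r was 0.584, when the median over all pairs of tested names was 0.10 and the upper 5% began at 0.65. After TMM scaling, which sets libraries to a common level over most miRNAs in place of total reads, it was 0.725, beside 0.67 for the start of the upper 5% of pairs. With the reads of miR-1, miR-26a and miR-26c left out of the library totals it was 0.603. The upper 5% of pairs then began at 0.72, above this mean. These names took large shares of some libraries and moved against the mean deviation, with r of -0.70 to -0.65. Other names with large shares stayed in the totals. let-7b and miR-3596, listed with the same reads, were each at 416330 RPM in adolescence brain. They moved with the mean deviation (r = 0.89). miR-7, at 590536 RPM in adolescence adrenal, moved against it (r = -0.60). Totals without let-7b, miR-3596 or miR-7 were not tested. Under each of the settings run the r of all 15 pairs stayed above 0, and the lowest was 0.28.

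**Figure D1:**
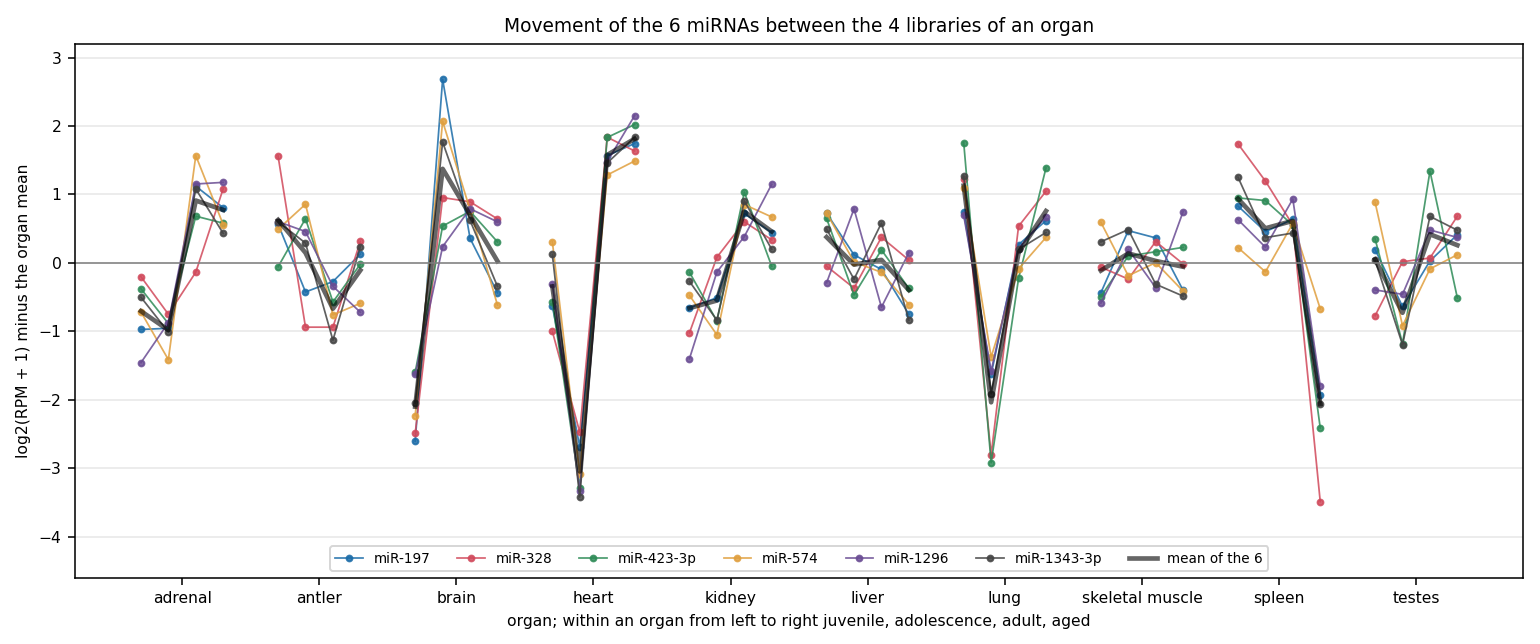
Deviation of each of the 6 miRNAs (coloured lines) and of their mean (black line) from the organ mean, in log2(RPM + 1), for the 4 libraries of 10 organs in the order juvenile, adolescence, adult and aged. The lines run together in heart, brain, lung and spleen, where the mean spans 4.86, 3.47, 3.16 and 3.00, and spread around 0 in liver and skeletal muscle.

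Heart held the widest movement as RPM. miR-197 was at 385 RPM in juvenile, 91.8 in adolescence, 1765 in adult and 1996 in aged heart. miR-574 was at 434, 40.2, 851 and 981 RPM and miR-1343-3p at 284, 23.4, 719 and 932 RPM at the same stages. Adolescence heart was the lowest for each of these, and the adult and aged libraries lay above both younger ones. The less abundant members were also lowest in adolescence and higher in the adult and aged than in the younger libraries, with miR-1296 at 58.1, 6.25, 202 and 323 RPM, miR-423-3p at 15.9, 1.56, 88.1 and 101 RPM, and miR-328 at 5.03, 1.17, 42.1 and 36.5 RPM. The mean deviation of the 6 ran from -3.05 in adolescence to 1.81 in aged heart, a 29.0-fold range on the log2(RPM + 1) scale, and heart alone held 37.8% of the squared mean deviations of the 40 libraries. miR-1, the main miRNA of striated muscle, took 57.8%, 81.5%, 31.6% and 15.1% of the reads in juvenile, adolescence, adult and aged heart. With its reads left out of the totals adolescence heart was at -1.90 and aged heart at 1.0, and after TMM scaling they were at -1.44 and 0.93, so that the direction was the same. The range in heart was then 2.98 without miR-1, below brain (3.47) and lung (3.16), and 2.37 after TMM scaling, below brain (3.91), spleen (2.91), lung (2.70) and testes (2.42).

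In brain the juvenile library was the low one for all 6 miRNAs and the adolescence library was the highest for 4. miR-197 was at 646 RPM in juvenile, 25237 in adolescence, 5046 in adult and 2908 in aged brain, and miR-1343-3p at 587, 8262, 3735 and 1913 RPM. miR-574 was at 63.8, 1276, 521 and 197 RPM. The other members moved with less spread among the 3 later stages. miR-328 was at 34.5, 385, 369 and 310.1 RPM, miR-1296 at 241, 879, 1292 and 1131 RPM, and miR-423-3p at 27.6, 125, 145 and 106 RPM. The mean deviation was -2.10 in juvenile and 1.37 in adolescence brain. miR-26a, a widely expressed miRNA, took 28.9% of the reads of juvenile brain against 0.452% in adolescence brain. miR-26c was listed with nearly the same reads, and the pair summed to 57.8% of the listed reads of the juvenile library. Whether the same reads stand under both names, and so count more than once in the shares and totals, was not tested. With miR-1, miR-26a and miR-26c left out of the totals the juvenile deviation was -1.22, and after TMM scaling it was -1.87.

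In lung the adolescence library was the lowest and the juvenile library the highest for all 6 miRNAs. miR-423-3p was at 261 RPM in juvenile, 9.23 in adolescence, 65.2 in adult and 201 in aged lung, and miR-1343-3p at 399, 43.1, 189 and 225 RPM. miR-197 was at 2223, 429, 1599 and 2039.8 RPM, and miR-574 at 4219.5, 764, 1868 and 2568 RPM. These 4 members shared the lowest and the highest library and differed in the size of the gap. miR-1296 was at 130.0, 26.1, 92.5 and 129 RPM, and miR-328 at 15.3, 0, 9.12 and 13.4 RPM, where the count of 0 in the adolescence library allows up to 4.61 RPM (3 reads). The mean deviation was -2.04 in adolescence and 1.13 in juvenile lung. The pair miR-26a and miR-26c took 65.0% of the reads of adolescence lung and 7.05% to 20.1% of the other 3, and without these names and miR-1 in the totals the adolescence deviation was -1.24.

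In spleen the aged library was the lowest for all 6 miRNAs. miR-197 was at 3966, 3061, 3468 and 587 RPM in juvenile, adolescence, adult and aged spleen, and miR-574 was the least low, at 3658, 2863, 4675 and 1968 RPM. miR-423-3p was at 305, 296, 231 and 28.7 RPM. The 3 younger libraries lay close together and the aged library stood below them. miR-1296 was at 236, 179, 291 and 43.1 RPM and miR-1343-3p at 508, 275, 288 and 50.3 RPM. miR-328 was at 36.5, 24.7, 15.5 and 0 RPM, and the count of 0 allows up to 7.18 RPM (3 reads). The mean deviation in aged spleen was -2.06, after TMM scaling -1.96, and without miR-1, miR-26a and miR-26c in the totals -1.42. The muscle miRNA miR-1 took 5.21% of the reads of aged spleen against 0.178% to 0.756% of the younger spleens, and miR-26a and miR-26c together took 48.6% against 2.39% to 5.34%. What part of the low values goes with these names beyond the scaling was not tested.

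Adrenal and kidney had a smaller movement in which the adult and aged libraries lay above the juvenile and adolescence libraries. In adrenal miR-197 was at 811, 820.4, 3461 and 2783 RPM, miR-574 at 1082, 667, 5273 and 2624 RPM, and miR-1296 at 84.6, 127, 522 and 530.3 RPM from juvenile to aged. Both older libraries were above both younger ones for all 6 miRNAs, as in heart. These are the values by which the 6 were chosen, and the share of all known names with this order was not counted. For miR-328 juvenile (41.5 RPM) and adult adrenal (43.5 RPM) rested on 26 reads each. In adrenal miR-7, a miRNA of endocrine and neural tissue, was at 474297 and 590536 RPM in the younger and at 93085 and 98969.8 RPM in the older libraries, and its part in the movement was not tested. The mean of the 6 was higher in the older than in the younger libraries by 1.69 on the log2 scale in adrenal and by 1.21 in kidney, against 3.39 in heart. In kidney miR-1296 was at 42.5, 104, 149 and 253 RPM and miR-328 at 12.1, 27.2, 39.5 and 32.7 RPM, and both older libraries were again above both younger ones for all 6. After TMM scaling the means of the adult and aged libraries stayed above those of the younger ones in adrenal, at 0.31 and 0.64 against -0.32 and -0.63, and in kidney, at 0.59 and 0.67 against -0.56 and -0.69.

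As RPM the mean moved least in the remaining organs. Its range was 1.30 in antler, 1.15 in testes, 0.77 in liver and 0.25 in skeletal muscle. These ranges depended on the scale, and after TMM scaling they were 0.73 in antler, 2.42 in testes, 1.05 in liver and 1.46 in skeletal muscle. The mean of the older libraries was below that of the younger ones for all 6 miRNAs in antler, by -0.78 on average, and above it for all 6 in testes, by 0.68. In liver miR-574 was at 7745, 4722, 4244 and 3065 RPM from juvenile to aged while miR-1296 was at 164, 349, 128 and 223 RPM, so these members did not keep a common order. In skeletal muscle no member exceeded 36.7 RPM, a level at which the added 1 RPM flattens small differences. Taken over the 10 organs, the mean deviation of a stage was -0.08 (SD 0.95) for juvenile, -0.52 (SD 1.28) for adolescence, 0.45 (SD 0.61) for adult and 0.15 (SD 0.996) for aged libraries. As RPM adult was above the organ mean in 9 of 10 organs, juvenile in 5, adolescence in 4 and aged in 6. These counts depended on the scale. After TMM scaling adult brain (-0.18) and adult liver (-0.50) were also below the organ mean, beside adult antler (-0.34). The 6 miRNAs were on the same side of the organ mean in 18 of the 40 libraries, below it in 8 and above it in 10.

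**Figure D2:**
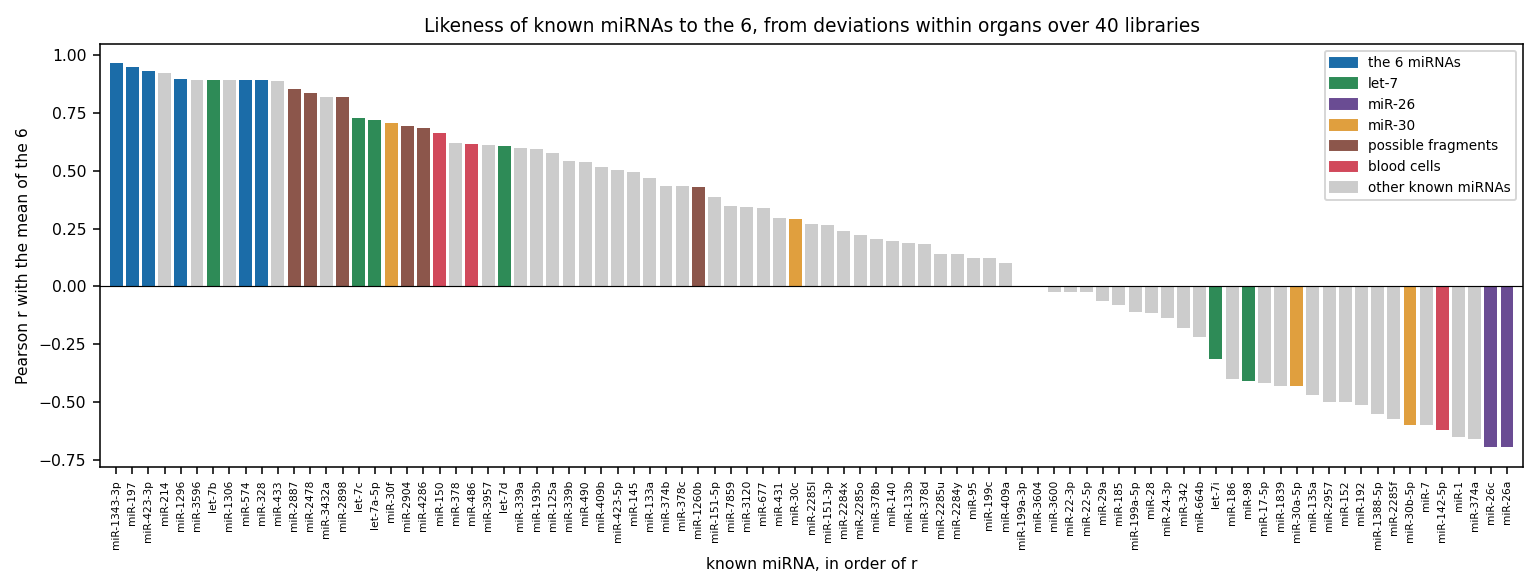
Pearson r over 40 libraries between the deviation of a known miRNA from its organ mean and the mean deviation of the 6 miRNAs, in order of r, for the 87 names that had 10 reads or more in 20 libraries or more. Bars in blue are the 6, which enter the mean themselves. miR-214, let-7b, miR-3596, miR-1306 and miR-433 stand among them at r of 0.89 to 0.92, and miR-26a and miR-26c close the order at -0.70.

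Some other known miRNAs followed the 6 closely. Among the 81 further names of that depth the median r with the mean of the 6 was 0.22, with 9 names above 0.8 and 10 below -0.5. These r were not computed without the 4 libraries that stand apart. The 5 highest were miR-214 (r = 0.92), miR-3596 and let-7b (0.89 each, listed with the same reads), miR-1306 (0.89), whose human hairpin lies within DGCR8, and miR-433 (0.89), a miRNA of the imprinted DLK1-DIO3 region. miR-214 was at 441, 70.3, 554 and 664 RPM in juvenile, adolescence, adult and aged heart and at 5503, 3512, 4593 and 1228 RPM in spleen. let-7b was at 29601, 6724, 35714 and 94626 RPM in heart and at 85558, 416330, 296968 and 352964 RPM in brain. Both had their lowest library where the 6 had theirs. The 5 lowest were miR-26a and miR-26c (-0.70 each), miR-374a (-0.66), miR-1 (-0.65) and miR-142-5p (-0.62), a miRNA of blood cells. miR-374a, miR-1 and miR-142-5p each had their highest brain, heart, lung and spleen libraries in juvenile brain, adolescence heart, adolescence lung and aged spleen, where the 6 were lowest. miR-26a was highest in the same brain, lung and spleen libraries, at 325107 RPM in adolescence lung and 243240 RPM in aged spleen.

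The let-7 family, whose members time development and are abundant in adult tissue, went with the 6 as a sum (r = 0.89). Most reads of this sum were let-7b (3949538 reads, r = 0.89), followed by let-7c with 302262 reads. Of the 6 measured members of the family 4 had r above 0, let-7a-5p, let-7b, let-7c and let-7d. For let-7i (-0.32) and miR-98 (-0.41) r was below 0. Among the 81 further names 52 had r above 0, so the share in the family was close to the background. The miR-30 family was mixed, with miR-30f at 0.71, miR-30c at 0.29, miR-30a-5p at -0.43 and miR-30b-5p at -0.60. The 7 names that may be fragments of other RNA classes (miR-1246, miR-1260b, miR-2478, miR-2887, miR-2898, miR-2904 and miR-4286) all had r above 0, from 0.32 to 0.85, and their sum had r = 0.85. That sum was 287, 45.7, 941 and 1816 RPM in juvenile, adolescence, adult and aged heart and 183, 2231, 754 and 581 RPM in brain. In these organs its lowest and highest libraries were those of the 6, but not in all organs. Juvenile testes had its lowest deviation in testes, at -2.13, with the mean of the 6 at 0.05. Juvenile skeletal muscle had its highest there, at 1.19, with the mean of the 6 at -0.11. The sum ranged from 45.7 to 9835 RPM over the 40 libraries. Its part in the movement was not tested, and with its reads left out of the totals the mean r of the 6 was 0.817. Of 8 blood-cell miRNAs, miR-155, miR-223 and miR-144 had no read under these exact names. The summed level of the others (633 to 40693 RPM, mostly miR-486) had r = 0.53 with the 6.

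For miR-423-5p, cut from the other arm of the miR-423 hairpin, r was 0.50 with the mean of the 6 and 0.58 with miR-423-3p. These values rested on aged testes, the shallowest library, where miR-423-5p had no read. Without that library r was 0.78 with the mean of the 6 and 0.76 with miR-423-3p. The arms had similar numbers of reads, 3882 for the 5p and 3649 for the 3p arm. In heart miR-423-5p was at 38.3, 4.30, 98.6 and 57.4 RPM from juvenile to aged, so adolescence was also its lowest library. The log2 ratio of the 3p to the 5p arm was 0.04 ± 0.30 (SD, n = 4) in liver and -0.89 ± 0.62 in skeletal muscle. In testes it was -1.60 in juvenile, -0.98 in adolescence and 0.38 in adult libraries, on 2 to 47 reads of the 3p and 4 to 144 of the 5p arm, and no ratio is given for aged testes, with 2 reads of the 3p and none of the 5p arm.

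**Figure D3:**
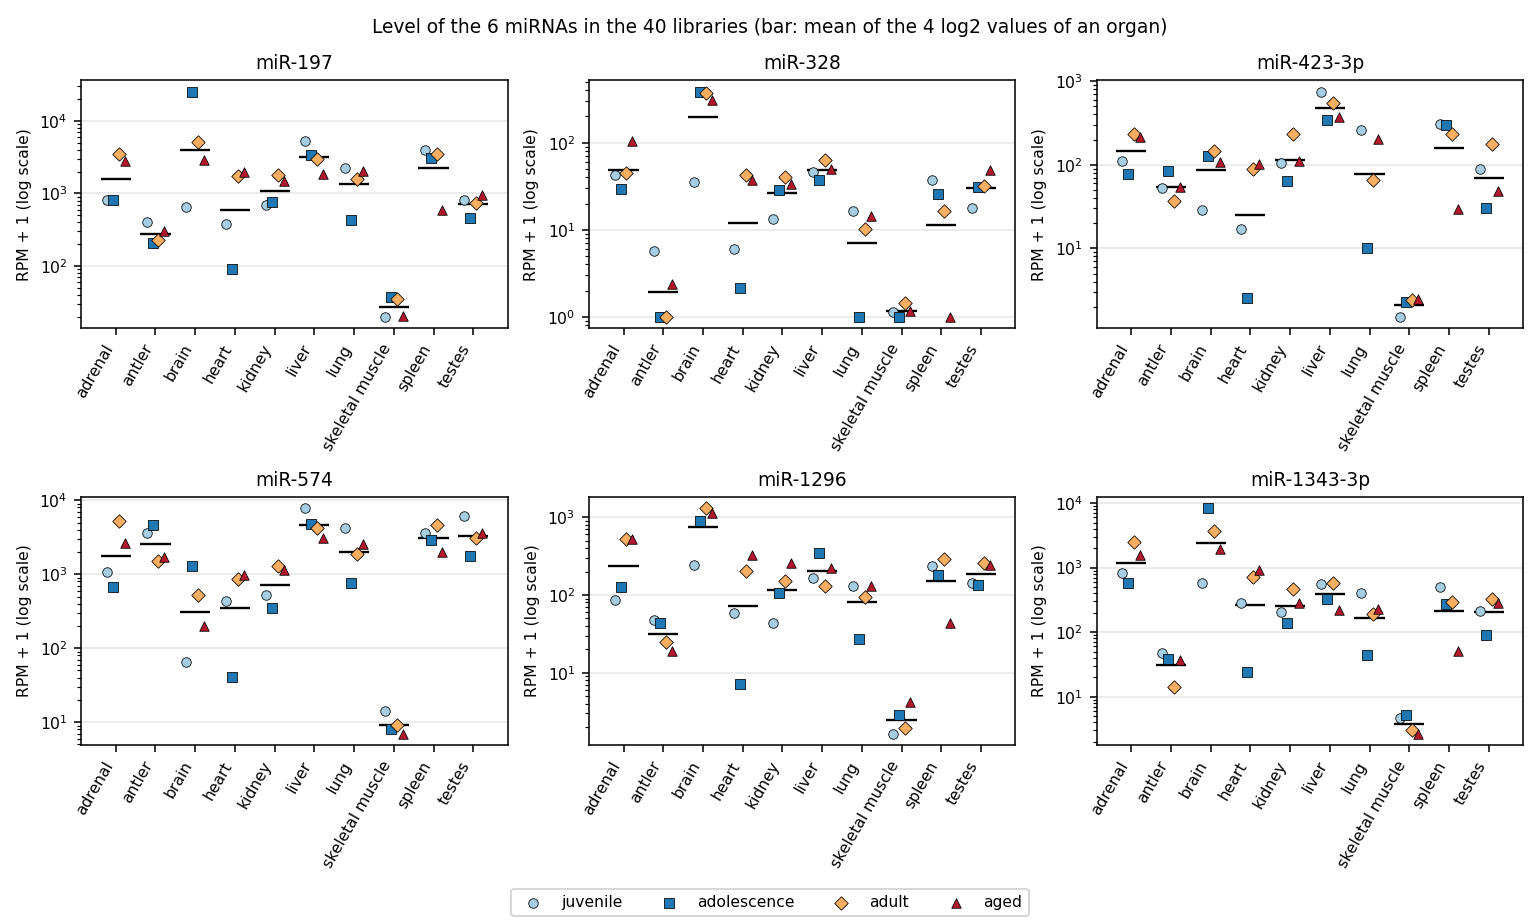
Level of each of the 6 miRNAs in the 40 libraries, as RPM + 1 on a log axis, by organ and stage; the bar is the mean of the 4 log2 values. Skeletal muscle is the lowest organ in every panel on this scale, brain the highest for miR-197, miR-328, miR-1296 and miR-1343-3p, and liver for miR-423-3p and miR-574.

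The levels of the organs, which the choice of the 6 did not use, separated them. The question was in which organs each miRNA was higher or lower than elsewhere. Each organ was set against the mean of the other 9 in a limma model of organ and stage, fitted to TMM-scaled log2(RPM + 1). A difference was called where it exceeded 1 on the log2 scale in size and its p, adjusted over 124 names by Benjamini-Hochberg, was below 0.01. Of the 60 differences of the 6 miRNAs 13 were called, 5 higher and 8 lower, against 22.8% of all differences tested, so the share is close to the background. Log2 differences on this scale understate those of miRNAs near 1 RPM, miR-328 first of all.

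Brain was the highest organ of 4 members. Beside the brain values given above, the highest library elsewhere was 103 RPM for miR-328 and 530.3 RPM for miR-1296, both aged adrenal, and 2481 RPM for miR-1343-3p in adult adrenal. The juvenile brain library lay below these values for all 3 miRNAs, so the groups overlapped through it, while the other 3 brain libraries lay above for miR-328 and miR-1296. miR-328 was higher in brain by 4.35 ± 0.67 (SE) on the log2 scale, with an adjusted p of 9.17e-07 by limma. miR-1343-3p was higher by 4.09 ± 0.55 (adjusted p = 8.79e-08) and miR-1296 by 3.38 ± 0.51 (adjusted p = 7.63e-07). Among all tested names 19.4% were called higher in brain. miR-197 was called as well, at 2.42 ± 0.57 (adjusted p = 0.000518), but its value rested on the adolescence library of 25237 RPM. Without the adolescence libraries it was 1.11 with an adjusted p of 0.0498. The call was also lost without the adult libraries (2.24, adjusted p = 0.019).

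miR-574 was the member that went the other way in brain. Its 4 brain values ran from 63.8 to 1276 RPM, within the range of the other organs, where it reached 7745 RPM in juvenile liver. Its log2 difference in brain was -1.74 ± 0.52 (adjusted p = 0.00508 by limma; 21% of names were called lower). The call did not hold. The difference was -0.73 in the edgeR fit (adjusted p = 0.321), -0.16 in DESeq2 (adjusted p = 0.818), -1.08 without the juvenile libraries (adjusted p = 0.186 by limma) and -1.17 without the 4 libraries that stand apart (adjusted p = 0.0631). It was also lost on total reads, with no filter on low values, without the adult and without the aged libraries, at -2.10 to -1.64 with adjusted p of 0.0121 to 0.0639. miR-423-3p did not pass the test in brain, at 0.49 ± 0.60.

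Antler, the bony cranial organ that deer regrow each year, was low in the same 4 members that were high in brain. miR-1343-3p was at 46.6, 37.4, 13.3 and 36.0 RPM and miR-1296 at 46.6, 42.0, 23.7 and 18.0 RPM from juvenile to aged antler. miR-197 was at 410, 205, 228 and 302 RPM. Outside antler only adolescence heart (23.4 RPM), adolescence lung (43.1 RPM) and the 4 skeletal muscle libraries had miR-1343-3p below the highest antler value. The log2 difference in antler was -2.97 ± 0.55 for miR-1343-3p (adjusted p = 3.82e-05 by limma), -1.92 ± 0.57 for miR-197 (adjusted p = 0.00575) and -1.79 ± 0.51 for miR-1296 (adjusted p = 0.00417), when 22.6% of all names were called lower. miR-328 had 2 reads in the 4 antler libraries, and was called lower at -3.13 ± 0.67 (adjusted p = 0.000211). Its summed level was 1.10 RPM in antler (exact 95% Poisson interval 0.133 to 3.96) and 235 RPM in brain (763 reads), a ratio of 0.00467 with a counting interval of 0.000564 to 0.0169. Of these calls that of miR-1343-3p held under each alternative run. That of miR-328 was lost without the adult libraries (-2.67, adjusted p = 0.015). Those of miR-197 and miR-1296 were lost without the juvenile, without the adult or without the aged libraries, on total reads and with no filter on low values, with adjusted p of 0.0123 to 0.104, and that of miR-197 also in the edgeR fit (adjusted p = 0.0103). Without the aged libraries miR-1296 was at -1.16. Low miR-197 was not particular to antler. In testes its difference was also -1.92 ± 0.57 and only just missed the call (adjusted p = 0.010006 by limma). miR-574 had its highest TMM level in antler, with 3591, 4627, 1509 and 1696 RPM, but its difference of 1.59 ± 0.52 did not pass the threshold (adjusted p = 0.0111).

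Liver was the highest organ of miR-423-3p, with 751, 346, 546 and 369 RPM from juvenile to aged. These 4 values were above every other library of the series, where the highest was 305 RPM in juvenile spleen. The difference was 2.03 ± 0.60 on the log2 scale (adjusted p = 0.00831 by limma; 9.68% of names were called higher). The call was lost when any stage was left out, with differences of 1.87 to 2.46 and adjusted p of 0.0112 to 0.0668, with no filter on low values (adjusted p = 0.0217) and without the stage term, the replicate block (adjusted p = 0.0119).

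Skeletal muscle depended on the scale. As RPM the 6 miRNAs were lowest there, miR-197 at 19.1, 36.7, 34.0 and 19.6 RPM and miR-574 at 13.0, 7.15, 8.31 and 5.98 RPM. With scaling to total miRNA reads all 6 were called lower, at log2 differences of -7.31 to -4.13, as were 82.3% of all names, and the median over all tested names was -3.61. After TMM scaling 3 of the 6 were called lower (12.9% of all names), miR-574 at -2.50 ± 0.52 (adjusted p = 0.00015), miR-1343-3p at -1.78 ± 0.55 (adjusted p = 0.00786) and miR-1296 at -1.65 ± 0.51 (adjusted p = 0.00738). miR-197 was at -0.60 ± 0.57, miR-423-3p at -1.44 ± 0.60 and miR-328 at -2.01 ± 0.67, none of them called. The call of miR-574 held under each alternative run, while those of miR-1343-3p and miR-1296 were lost in the edgeR fit (adjusted p of 0.0188 and 0.0139) and without the adult libraries (0.0268 and 0.0224), that of miR-1343-3p also without the aged (0.0191) and that of miR-1296 without the juvenile libraries (0.0104). The same change of scale moved the median over all names by -0.90 in heart and by 0.53 in spleen, and upward by 0.98 for adrenal, 1.06 for kidney, 1.18 for liver and 1.37 for testes. On total reads 17 of the 60 differences of the 6 were called, 9 higher and 8 lower (38.1% of all differences). In brain the same 4 miRNAs were called higher (21.8% of names) and miR-574 was not called, and in antler miR-328 and miR-1343-3p were called lower (16.9%) while miR-197 and miR-1296 were not. miR-1343-3p was then also called higher in adrenal (25.8%), miR-197 and miR-574 beside miR-423-3p in liver (35.5%), and miR-574 in testes (33.1%).

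**Figure D4:**
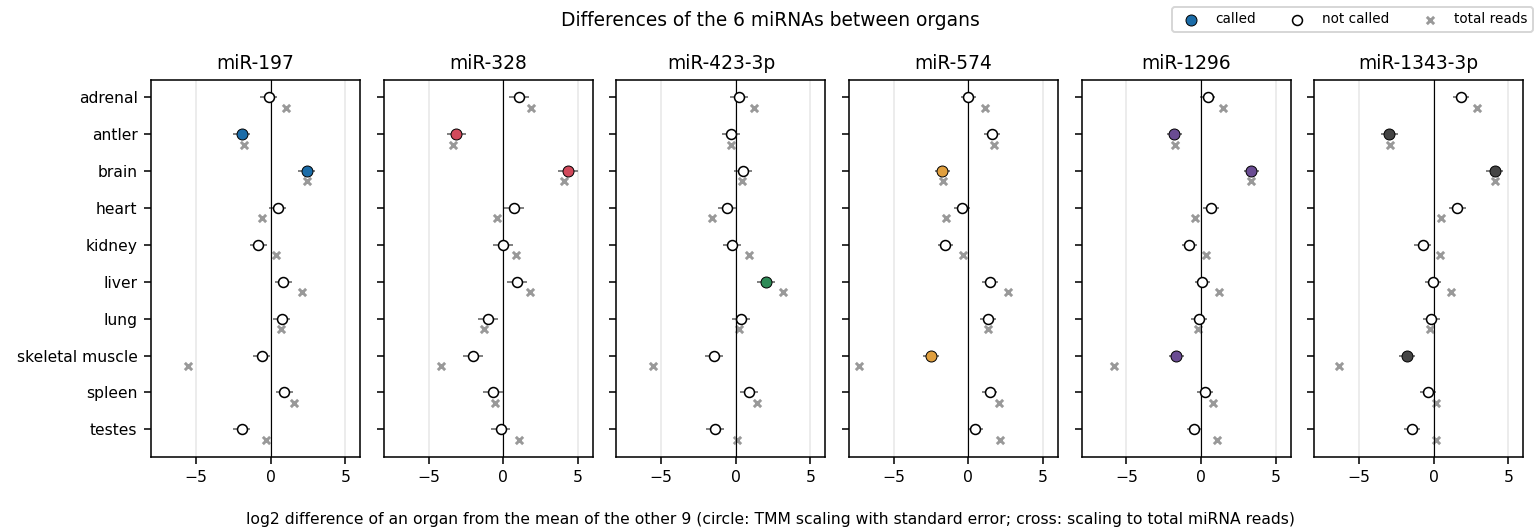
Log2 difference of each organ from the mean of the other 9 for the 6 miRNAs, after TMM scaling with standard errors (circles, filled where called) and with scaling to total miRNA reads (crosses). Filled circles stand to the right in brain for 4 miRNAs and to the left in antler for the same 4, and the crosses of skeletal muscle lie between -7.31 and -4.13.

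Pairs of organs next to each other in the order of TMM-scaled levels mostly did not differ beyond their spread. Of the 270 differences between pairs of organs 59 were called by limma, near the 23.1% of all names. Of the 54 differences between neighbours in the order 2 were called. The order was taken from these same levels, so neighbours differ little by construction and this count is a description. miR-328 was higher in brain than in adrenal, the next organ, by 2.98 ± 0.89 (adjusted p = 0.00879), and miR-1296 higher in brain than in heart by 2.44 ± 0.68 (adjusted p = 0.00349). Brain and adrenal led the order of miR-328 and miR-1343-3p, and skeletal muscle and antler closed the order of miR-328, miR-1296 and miR-1343-3p. For miR-574 antler, liver and spleen led and brain and skeletal muscle closed it. The order as RPM was another, with liver, testes and spleen leading for miR-574 and skeletal muscle last for all 6. The number of called pairs was 15 of 45 for miR-1343-3p, 14 for miR-574, 12 for miR-328, 10 for miR-1296, 6 for miR-197 and 2 for miR-423-3p.

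The ratio of miR-574 to miR-1343-3p, which no scaling of the library can move, showed the same separation. Ratios to miR-197 also kept the antler and brain libraries apart for miR-574, miR-1343-3p and miR-423-3p. For miR-1296 the log2 ratios to miR-197 overlapped, at -4.07 to -2.29 in antler and -4.84 to -1.36 in brain. miR-574 and miR-1343-3p had r = 0.90 within organs. The log2 ratio of their reads was 6.27, 6.95, 6.82 and 5.56 in juvenile, adolescence, adult and aged antler and -3.20, -2.70, -2.84 and -3.28 in brain. The libraries of these organs lay at opposite ends with no overlap. The means were 6.40 ± 0.63 (SD, n = 4) in antler, where miR-574 had 84.5 times the reads of miR-1343-3p, and -3.00 ± 0.28 in brain, where it had 0.125 times. Testes (4.01 ± 0.71), spleen (3.88 ± 1.05), lung (3.59 ± 0.38) and liver (3.58 ± 0.48) lay between and differed from each other by less than the largest of these SDs, and heart (0.43 ± 0.32) and adrenal (0.60 ± 0.39) were nearest to equal reads. In limma miR-574 was higher in antler than in brain by 2.99 ± 0.70 (adjusted p = 0.000471), while the same difference was -3.91 ± 0.77 for miR-197 (adjusted p = 5.15e-05).

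**Figure D5:**
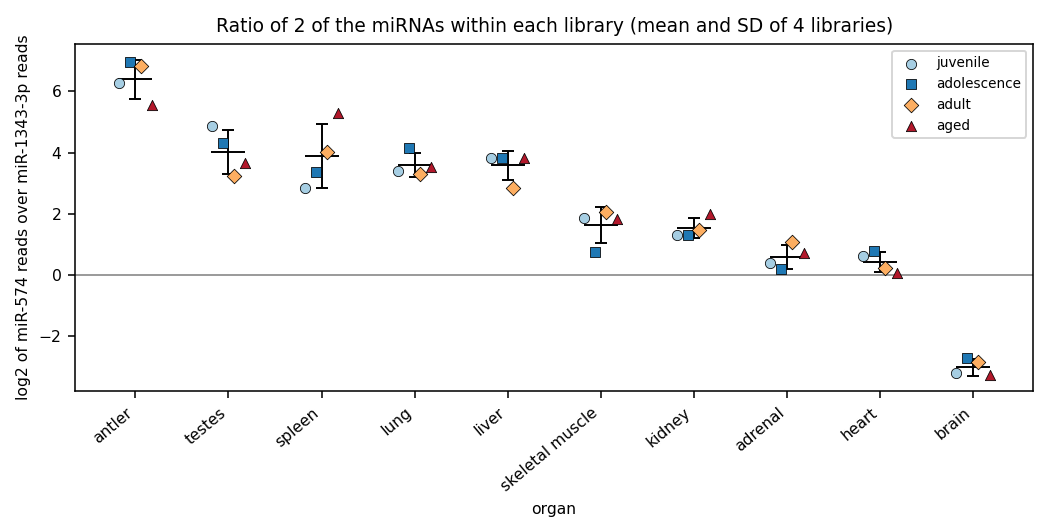
Log2 ratio of the reads of miR-574 to those of miR-1343-3p in each library, by organ in order of the mean; the dash and bar are the mean and SD of 4 libraries. The 4 antler libraries lie between 5.56 and 6.95 and the 4 brain libraries between -3.28 and -2.70.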

How the data were processed

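Small RNA of 40 libraries was sequenced on an Illumina instrument. Per the labels and the study's methods, the authors trimmed adapters, dropped short reads and reads of other RNA classes, matched the rest to miRBase 22.0 and predicted further miRNAs with miRDeep 2.0.5; the submitters' processing notes also name CASAVA, bcl2fastq 1.8.4 and Bowtie. The study names the bovine genome as reference, and its build was not given in the sources used here. The deposited values are RPM (headed tpm, not divided by length), made by the authors per 1000000 miRNA reads. All 7982 listed values lay within 0.01 of whole reads (largest distance 4.9e-05), 100% of them, and these reads were used for depth, intervals and count models. An unlisted miRNA was set to 0.

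Groups were the organs of the labels, and the stage was the replicate number. The 6 miRNAs and all lists were chosen with earlier results of these data known. The antler reads of miR-148c were added to miR-2957, and names found in antler alone were left out. Deviations were log2(RPM + 1) minus the organ mean. Differences between organs used limma 3.58.1 (trend) in R 4.3.3 on log2(RPM + 1) with TMM factors of edgeR 4.0.16, with organ and stage as terms, for the 124 known names that had 10 reads or more in 4 libraries or more. The stage term pairs the libraries because those of a stage share their deer. Over 180 pairs of libraries of the same stage the median r of their deviations was 0.12, and over 540 pairs of different stages it was -0.05. Taking deviations from organ means ties the second value to the first, so it is no separate support for the pairing. p-values measure the spread that the organ and stage terms leave between libraries. Each library pools deer, so they do not measure the spread between single deer. The fit was tested on simulated data. Named miRNAs are the 6, miR-423-5p, the 5 names most and the 5 least like the 6, and the members of the lists. Alternatives were the edgeR quasi-likelihood test, DESeq2 1.42.0, other scalings, pseudocounts of 10 and 0.5 RPM, no filter, no stage term and leaving out stages, organs and libraries. Numerical work used Python 3.11.15, numpy 2.4.6, pandas 2.3.3 and scipy 1.17.1. No sequences were used here.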

Additional observations from a re-analysis of the deposited data

Results flagged for a closer look

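Within each organ the 4 libraries were examined for a library far from the other 3 (gap to the nearest library over the whole range above Dixon's 95% critical value), for each of the 6 miRNAs and for their mean, in 70 groups. Of the 70 groups 5 were marked. The values are those by which the 6 were chosen, and the 4 libraries of an organ differ in stage. The rate of about 1 in 20 that the critical value sets for chance therefore does not apply, and the marks are a description. In spleen the aged library stood apart for miR-197, at -1.92 from the organ mean in log2(RPM + 1), for miR-423-3p, at -2.41, and for the mean of the 6, at -2.06. For miR-328 the juvenile brain library stood apart at -2.49 and the adolescence lung library at -2.80, the latter with no read. All 5 were low libraries, and each lies in juvenile brain, adolescence lung or aged spleen. Adolescence heart, the library with the lowest mean of the 6, was not marked. The 5 are not independent, since the mean holds the single miRNAs.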

How the results depend on the processing

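The mean r of 0.816 became 0.725 after TMM scaling, 0.747 without miR-1 in the totals, 0.739 without miR-26a and miR-26c, 0.603 without all 3 names, 0.738 as Spearman's rho, 0.744 without heart and 0.584 without the 4 libraries that stood apart. It ran from 0.781 to 0.832 when a stage was left out. With stage means also removed, as a replicate block, it was 0.815. The 13 called differences between an organ and the other 9 became 21 without the 4 libraries (12 in common) and 5 to 15 when a stage was left out, 5 without the adult and 8 without the aged libraries. The 59 called pairs of organs became 102 on total reads, 91 without the 4 libraries and 29 to 62 when a stage was left out. Without the replicate block (the stage term) 13 differences, 12 of them the same, and 57 pairs were called. edgeR called 11 (9 in common, 7 higher and 4 lower against 5 and 8) and DESeq2 16 (12 in common). The cause of these changes was not tested, other than that leaving out a stage leaves fewer libraries. For the 13 single differences 109 values kept the call and 34 lost it with the direction kept, and none changed sign. The calls of miR-328, miR-1296 and miR-1343-3p in brain, miR-1343-3p in antler and miR-574 in skeletal muscle held under all the alternatives run. The sign of the mean deviation was kept in 35 of 40 libraries after TMM scaling and in 38 without miR-1, miR-26a and miR-26c. The alternatives without the 4 libraries, without aged testes for miR-423-5p, without miR-26a and miR-26c or the possible fragments, and those of the pairs were added after seeing the data. Depth limits miR-328 most.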

Other observations

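Defining miRNAs of the organs also differed between the libraries in which the 6 were low and the others. In heart miR-133a, which is made with miR-1 in striated muscle, was at 83958, 29225, 184634 and 252493 RPM in juvenile, adolescence, adult and aged libraries, so it was lowest where miR-1 was highest and in the same order as the mean of the 6. The cardiac miR-208b had another order, at 18.2, 78.1, 41.4 and 33.1 RPM. In spleen miR-142-5p was at 57.6, 104, 6.62 and 2849 RPM from juvenile to aged, and miR-150, a lymphocyte miRNA, at 256, 325, 267 and 31.1 RPM. In brain the neuronal miR-124a was at 57640, 2446, 31967 and 37110 RPM, lowest in the adolescence library, where miR-197 was highest.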
